A study of Danio rerio with 4 samples.

Results

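The lens crystallin genes of the zebrafish were examined in count tables of whole embryos. The genes were taken by symbol alone: every gene row whose annotated symbol starts with cryaa, cryab, cryba, crybb, crybg, crygm, crygn or crygs was a member, which leaves out the cryptochromes. This gave 55 of 31953 gene rows. They comprised 3 alpha crystallin genes, 13 beta, 30 gamma M, 2 gamma N, 4 gamma S and 3 crybg genes. The first 5 classes, 52 genes, are called the lens crystallins here.

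There were 4 libraries of embryos at 24 h post fertilisation, 1 per group. RNA-seq was made from wild type and from ddx39a mutant embryos. RIP-seq (RNA immunoprecipitation followed by sequencing) was made under the same 2 genotype labels. The purpose stated for the series was to find transcripts that change in ddx39a mutants and RNAs bound by DDX39A, a DEAD-box helicase of pre-mRNA processing and mRNA export. The protocol text of both RIP-seq libraries describes mutant embryos injected at the one-cell stage with mRNA for Flag-tagged ddx39a and recovery on anti-Flag beads. The labels nonetheless call one wild type, so each RIP-seq library is named by its label and neither is taken as a mock. The labels give no allele, no strain and no number of embryos per library. With 1 library per group there is no replicate spread, no p-value was computed, and every ratio compares libraries. Intervals are 95% exact binomial counting intervals.

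Crystallins are the soluble proteins that fill lens fibre cells and give the lens its refractive power. Alpha crystallins belong to the small heat shock protein family and act as chaperones. Beta and gamma crystallins share a double Greek-key fold and have a mainly structural role. The gamma M crystallins are methionine-rich proteins of the dense fish lens. CRYBG1 carries beta/gamma crystallin domains, but in human cells it is known as an actin-binding protein and not as a refractive protein. The lens placode gives rise to an epithelium, whose cells elongate into fibres and then make crystallins in bulk.

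Reads counted to genes numbered 9922182 and 9533101 in RNA-seq of wild type and mutant, and 1966053 and 2246938 in RIP-seq of the same labels. One gene with the symbol DDX39A, ENSDARG00000015111, had 3742 counts in wild type and 706 in the mutant, and the other DDX39A gene, ENSDARG00000006225, had 2242 and 2382. In RNA-seq, 11.2% of wild-type and 8.42% of mutant alignment records were to more than 1 place. Such reads were not counted, so values of closely related crystallin copies rest on their unique parts. The part of this difference in the gamma M results was not tested.

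Summed together, the lens crystallins were lower in the mutant embryos, but not in every class. Gamma M, gamma N and beta crystallins were lower, to unequal degrees, while the alpha and gamma S intervals included equality. Reads counted over all 52 genes numbered 4766 in wild type and 1757 in the mutant, 2.72-fold lower after scaling (2.57 to 2.87). Gamma M crystallins were 5.96-fold lower (4.58 to 7.86), with 393 counts against 66. Gamma N crystallins were 3.08-fold lower (2.48 to 3.85), with 338 against 110, and beta crystallins 2.62-fold lower (2.47 to 2.79), with 3981 against 1519. Alpha crystallins, with 32 counts in each library, had a ratio of 0.998 (0.592 to 1.68). Gamma S crystallins, with 22 and 30 counts, had a ratio of 1.36 (0.760 to 2.48). These sums take in every member and do not depend on a filter. In whole embryos, fewer lens fibre cells and less crystallin RNA per cell cannot be told apart.

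**Figure D1:**
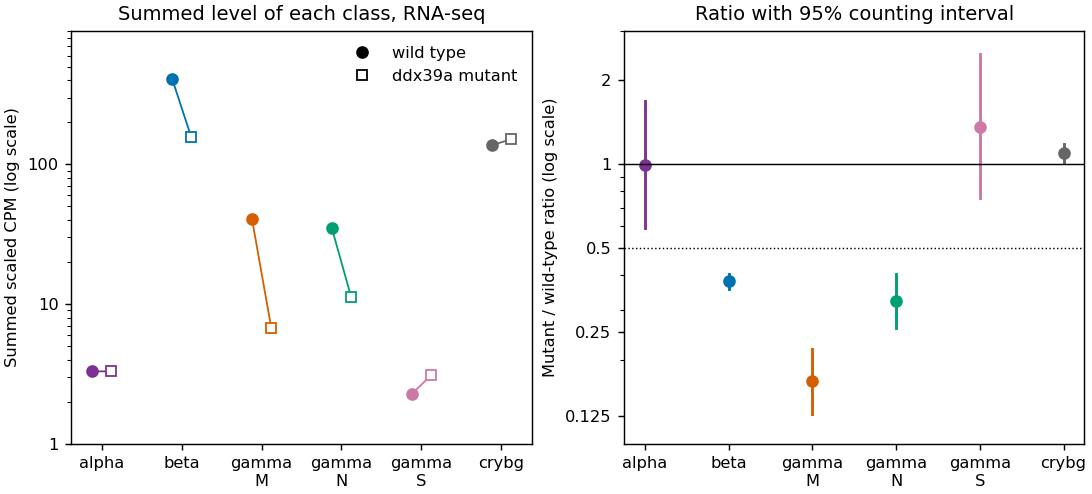
Summed level of each crystallin class in the 2 RNA-seq libraries. Left, TMM-scaled CPM (counts relative to library size, log axis), filled circles for wild type and open squares for the ddx39a mutant; right, the mutant to wild-type ratio (log axis) with its 95% counting interval, the dotted line marking a ratio of 0.5. The beta, gamma M and gamma N classes lie below the dotted line, and the alpha, gamma S and crybg classes lie near a ratio of 1.

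The mix of classes among crystallin reads therefore differed between the libraries, a comparison that needs no scaling of the libraries. Among reads of the 52 lens crystallins, the gamma M share was 8.25% in wild type (exact binomial interval 7.48 to 9.06%) and 3.76% in the mutant (2.92 to 4.75%). The beta share was 83.5% (82.4 to 84.6%) and 86.5% (84.8 to 88.0%), so it was slightly higher in the mutant. The direction of the beta share depends on the denominator. With the crybg genes counted in, which made up 21.9% (20.8 to 22.9%) and 45.6% (43.8 to 47.3%) of all crystallin reads, the beta share was 65.3% (64.0 to 66.4%) and 47.1% (45.3 to 48.8%). Set directly against the beta class, the mutant to wild-type ratio of gamma M was 2.27-fold lower (1.73 to 3.02). For gamma N against beta the ratio of ratios was 0.853 (0.676 to 1.07), so a difference between these classes was not detectable at this depth. The alpha ratio was 2.62 times the beta ratio (1.55 to 4.43) and the gamma S ratio 3.57 times (1.99 to 6.52). Both rest on few counts, which for alpha came mostly from 1 CRYAB gene. These are shares of reads and not of molecules, since transcript lengths were not used.

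Per gene, a member was called when its ratio was at least 2-fold and its interval excluded equality, among genes that reached a CPM of 1 in either library. Of the 55 members, 21 were called lower and none higher, 5 were compared and not called, and 29 were under the filter. In the background of 18800 genes compared, 2.6% were called lower and 2.16% higher. Of the 26 members compared, 9 passed the filter only through the wild-type library, all of them gamma M genes, and such genes had to differ. When the mean CPM of both libraries had to reach 1 instead, 22 members were compared and 17 of them were called lower. By that rule 416 of 18156 genes were called lower. The median log2 ratio of the lens crystallins was -1.56 over the 20 that passed this mean filter, against 0.00 over the 18156 genes that did. The 28 lens crystallins left out of the comparison, none with more than 9 counts, had 62 counts in wild type and 21 in the mutant together, 2.96-fold lower (1.78 to 5.11).

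**Figure D2:**
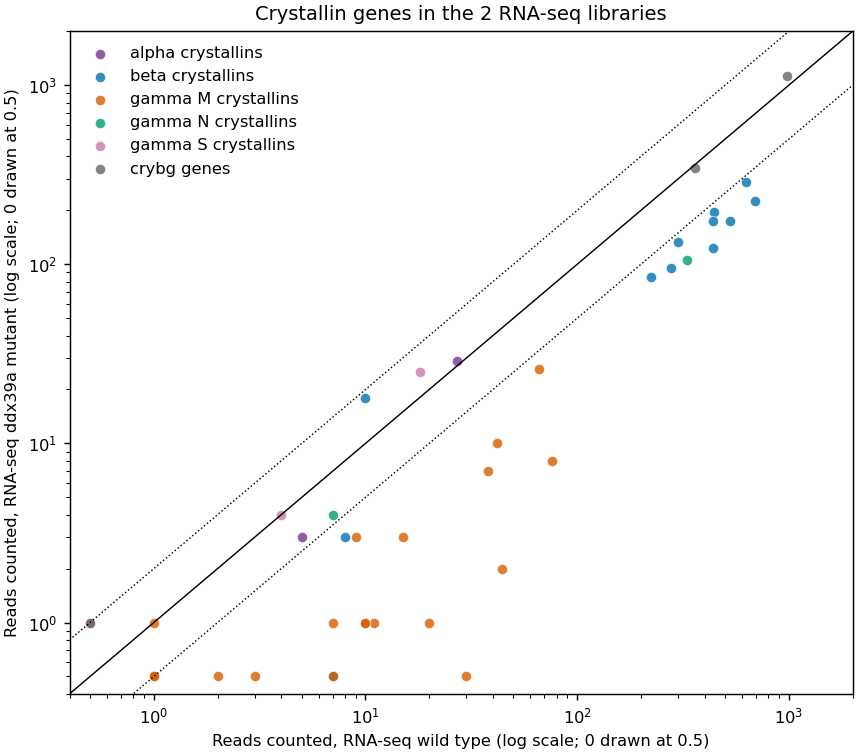
Reads counted per crystallin gene in wild-type (x axis) and ddx39a mutant RNA-seq (y axis), both on log axes with 0 drawn at 0.5; points are the 42 members with a read in either library. The solid line marks equal counts and the dotted lines 2-fold differences; the beta genes with at least 223 wild-type counts and the compared gamma M genes lie below the lower dotted line.

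Beta crystallins form the most read class. The acidic (beta A) and basic (beta B) subgroups had nearly the same summed ratio: 2121 against 809 counts for beta A, 2.63-fold lower (2.42 to 2.85), and 1860 against 710 for beta B, 2.62-fold lower (2.4 to 2.87). Their ratio of ratios was 0.999 (0.886 to 1.13). Of 13 beta genes, 9 were called lower, against 2.6% of all genes compared, and each of these 9 had at least 223 wild-type counts. The gene crybb1l2 had 690 counts in wild type and 225 in the mutant, 3.07-fold lower (2.64 to 3.59). CRYBB1 had 627 and 289, 2.17-fold lower (1.89 to 2.51). The gene crybb1l1 had 525 and 175, 3.0-fold lower (2.53 to 3.59), and CRYBA4 had 441 and 196, 2.25-fold lower (1.90 to 2.68).

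The remaining called beta genes were acidic. The gene cryba1b, with 438 and 124 counts, was 3.54-fold lower (2.89 to 4.35), the furthest from equality of the beta class by the interval bound nearest to it. The gene cryba1l1 had 436 and 175 counts and cryba1l2 had 277 and 95. The pair of genes with the symbol CRYBA2 had 299 and 134 counts (ENSDARG00000041925) and 223 and 85 counts (ENSDARG00000030349).

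Some beta genes differed in ratio from the rest of their class, with counting intervals that excluded equality. With 1 library per group, how far such differences vary between replicates is not known. Each compared member was set against the summed rest of its class, which needs no scaling, and 4 of 10 beta intervals excluded equality. The ratio of cryba1b was 0.719 times that of the other beta genes (0.579 to 0.889) and that of crybb1l2 0.829 times (0.701 to 0.979). CRYBB1 stood at 1.26 times (1.07 to 1.47). CRYBB3 had 10 counts in wild type and 18 in the mutant, a ratio of 1.80 (0.787 to 4.36), which was 4.76 times that of the rest (2.08 to 11.6). CRYBB3 was therefore the 1 compared beta gene that was not called and the 1 with more mutant than wild-type reads. The other beta genes had few or no reads: CRYBA1 had 7 and 0, crybb1l3 had 8 and 3, and CRYBB2 had none in either library. In the RefSeq annotation of GRCz12tu the genes matched to CRYBA1 and crybb1l3 overlap, so their reads can be split or left out.

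Several beta genes sit in pairs of an A and a B gene that neighbour each other in the RefSeq order of protein-coding genes. The neighbours CRYBB1 and CRYBA4 had close ratios, 0.460 and 0.444. In the pair cryba1l2 and crybb1l2 they were 0.342 and 0.326. In the pair crybb1l1 and cryba1l1 they were 0.333 and 0.401. Within each of these pairs the counting intervals overlapped. Genes of different pairs could be as close, such as crybb1l2 and crybb1l1, at 0.326 and 0.333. Close ratios were therefore not particular to neighbours.

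**Figure D3:**
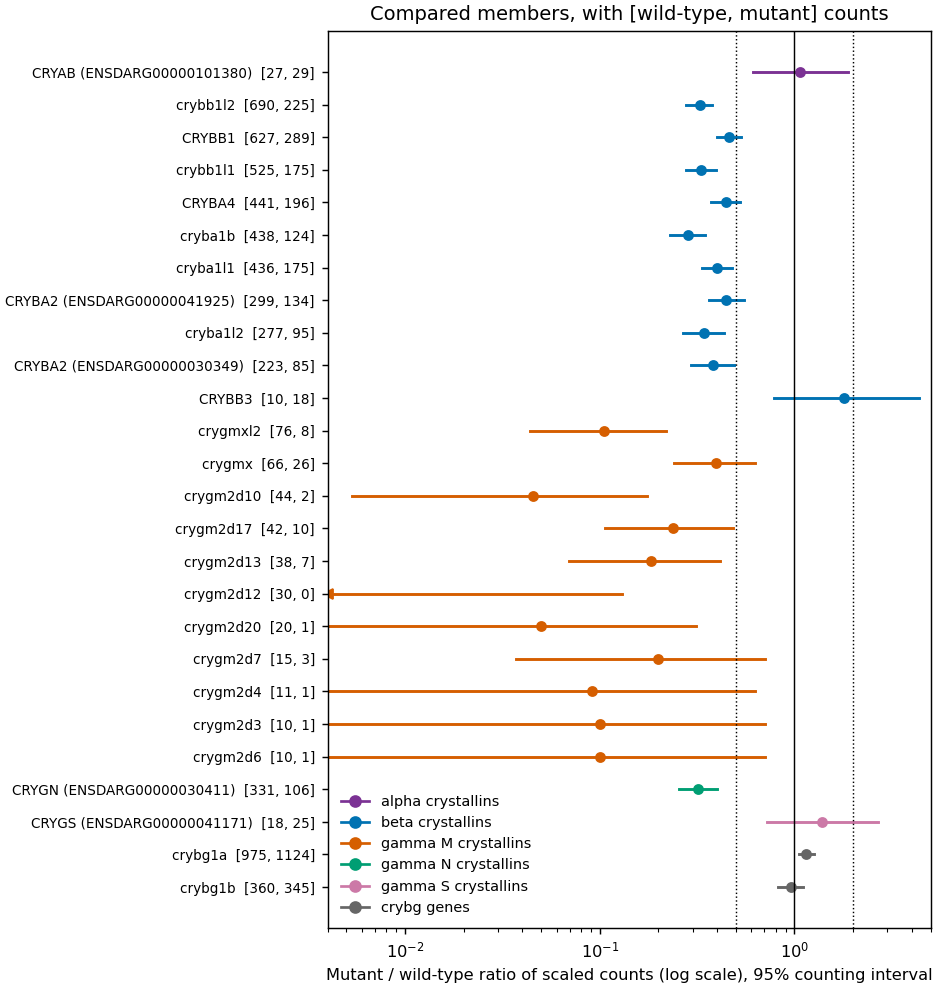
Mutant to wild-type ratio of scaled counts (log axis) for the 26 compared members, grouped by class, with the 95% counting interval as a line and the wild-type and mutant counts in brackets; a left arrow marks crygm2d12, with 0 mutant counts, and lines that reach the left edge go on beyond it. Dotted lines mark 2-fold differences; the long gamma M lines show how few reads those ratios rest on.

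Gamma M crystallins had the lowest summed ratio of the classes, with reads spread thinly over many copies. The gamma N ratio was 1.94 times the gamma M ratio (1.36 to 2.76). Of 30 members, 19 had reads in wild type and 14 in the mutant, and 18 had more in wild type, against 1, crygm4, with more in the mutant (0 and 1 count). Of the 11 compared, all 11 were called lower, 9 of them through the wild-type library alone, and such genes had to differ. By the mean filter 7 were compared and all 7 were called lower, against 416 of 18156 genes. Over all 18800 genes compared, 2.6% were called lower, with 9729 ratios below 1 and 9071 above. The crygm2d copies, 18 genes, had 250 counts in wild type and 30 in the mutant, 8.35-fold lower (5.70 to 12.6). The crygmx genes, 3 members, had 142 and 34, 4.18-fold lower (2.86 to 6.27). Against each other, the crygm2d ratio was 1.99-fold lower than the crygmx ratio (1.13 to 3.53).

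Ratios of single gamma M genes covered a wide range, many of them resting on few mutant counts. The gene crygmxl2 had 76 counts in wild type and 8 in the mutant, 9.51-fold lower (4.59 to 22.8). Its RefSeq neighbour crygmx had 66 and 26, 2.54-fold lower (1.59 to 4.17), and these intervals do not overlap. The gene crygm2d10 had 44 and 2 counts, 22-fold lower (5.75 to 188). The gene crygm2d12 had 30 wild-type counts and no mutant count, which against a floor of 3 counts per library is at least 10-fold lower, with an interval down to 7.65-fold. The genes crygm2d17 and crygm2d13 had 42 and 10 counts and 38 and 7 counts. Against the rest of the class, 3 of 11 intervals excluded equality: crygmx lay above (3.21 times, 1.75 to 5.82), and crygm2d10 and crygm2d12 below. The crygm2d10 ratio was 0.248 times that of the rest (0.0285 to 0.995), and the crygm2d12 interval reached up to 0.744 times. Both passed the filter only through the wild-type library, which favours a low ratio, so nothing is concluded from their place below.

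Among the other compared crygm2d copies, crygm2d20 had 20 and 1 counts and crygm2d7 had 15 and 3. The copies crygm2d4, crygm2d3 and crygm2d6 had 11, 10 and 10 counts in wild type and 1 each in the mutant. Genes crygm1, crygm2a, crygm2e, crygm2f, crygm3, crygm6, crygm7 and crygmxl1 had no reads in either RNA-seq library, nor did crygm2d11 and crygm2d15. A count of 0 allows up to 3 counts, a CPM of 0.302 in wild type and 0.315 in the mutant, so these genes are not shown to be silent. RefSeq places 27 of the 30 gamma M genes on one chromosome, and the crygm2d copies with reads and those without lie among each other there.

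The alpha crystallins were barely read at this stage. CRYAA, the lens alpha A crystallin, had 5 counts in wild type and 3 in the mutant. Of the genes with the symbol CRYAB, the alpha B crystallin that other tissues also express, ENSDARG00000101380 had 27 and 29 counts, a ratio of 1.07 (0.613 to 1.88), and ENSDARG00000042621 had none. None of them was called, and the interval of the summed class lies within 2-fold of equality on both sides. Without CRYAB ENSDARG00000101380 the alpha ratio was 0.599 (0.093 to 3.08), so the class value is mostly the value of that gene.

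Gamma N reads came almost wholly from 1 gene: CRYGN (ENSDARG00000030411) had 331 and 106 counts, 3.13-fold lower (2.51 to 3.93), and the other CRYGN gene (ENSDARG00000102129) had 7 and 4. Among gamma S genes, CRYGS (ENSDARG00000041171) had 18 and 25 counts and a ratio of 1.39 (0.727 to 2.7). The second CRYGS gene (ENSDARG00000042992) had 4 in each library, crygs4 had 0 and 1, and crygs3 had none. Without CRYGN ENSDARG00000030411 the gamma N ratio was 0.571 (0.122 to 2.24), so the class value is the value of that gene.

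The crybg genes of the symbol family were not called. The gene crybg1a had 975 counts in wild type and 1124 in the mutant, a ratio of 1.15 (1.06 to 1.26). The gene crybg1b had 360 and 345, a ratio of 0.957 (0.823 to 1.11), and crybgx had 0 and 1. Set against the lens crystallins, the summed crybg ratio was 2.99 times higher (2.72 to 3.28). The crybg genes were taken in by symbol. By the known role of CRYBG1, crybg1a and crybg1b are not counted as lens crystallins here, and the class is given apart for that reason. The gene crybgx is grouped with them by symbol alone.

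Lists of other lens genes were set beside the crystallins. In the list of lens fibre membrane and cytoskeleton genes, 24 gene rows matched and 17 were compared. Of these, 9 were called lower and none higher, against 2.6% and 2.16% of the 18800 genes compared. Of these 17, 3 passed the filter only through the wild-type library. Of the 14 that passed the mean filter, 7 were called lower, against 416 of 18156 genes, and the median log2 ratio was -1.03. MIP, the lens aquaporin, is a symbol of 2 genes: ENSDARG00000037285 had 304 and 99 counts, 3.08-fold lower (2.44 to 3.90), and ENSDARG00000013963 had 120 and 16, 7.51-fold lower (4.44 to 13.6). LIM2 (ENSDARG00000015445), a fibre membrane protein, had 151 and 58, 2.61-fold lower (1.91 to 3.59), and lim2.1 had 82 and 29, 2.83-fold lower (1.83 to 4.49).

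The genes of that list with the most reads, ctsla and epha2a, were not called. For the lysosomal protease gene ctsla, with 11722 and 12013 counts, the ratio was 1.02 (0.997 to 1.05). The ephrin receptor gene epha2a had 1063 and 1116, a ratio of 1.05 (0.963 to 1.14). The FYCO1 genes, of autophagosome transport, had 214 and 230 counts (ENSDARG00000104500) and 120 and 127 (ENSDARG00000078022). In whole embryos, reads of ctsla, epha2a and the FYCO1 genes need not come from the lens, which was not tested. The gene tdrd7a, of RNA granules, had 31 and 14 counts and was called, 2.22-fold lower (1.15 to 4.51). The fibre filament gene BFSP1 had 31 and 16 counts, a ratio of 0.515 (0.263 to 0.971), just short of the size rule. BFSP2, of the same filaments, had 13 and 6, a ratio of 0.461 (0.144 to 1.30), with an interval that includes equality.

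**Figure D4:**
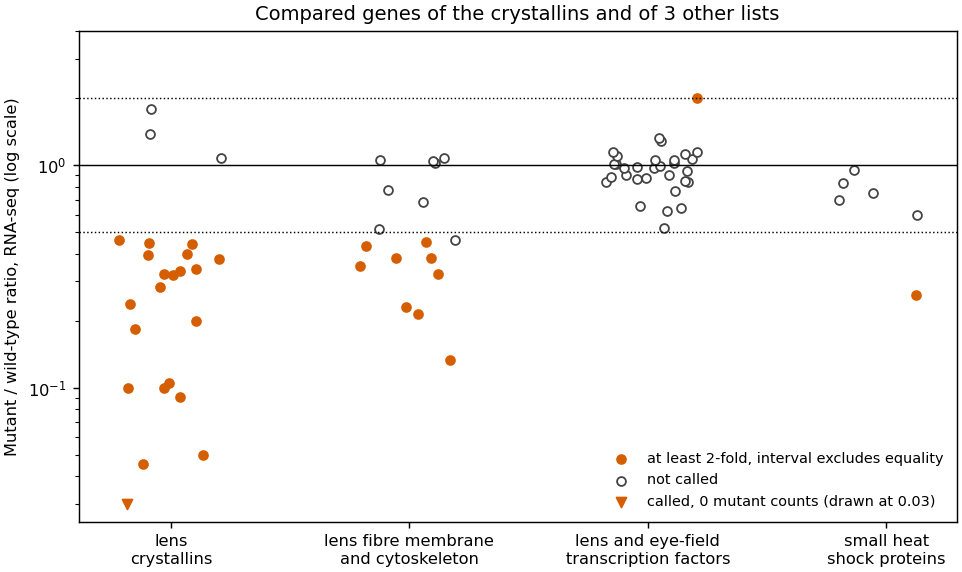
Mutant to wild-type ratio in RNA-seq (log axis) of each compared gene of the lens crystallins and of 3 other lists; filled points are called, open points are not, and the triangle is crygm2d12, with 0 mutant counts. Below 0.5 lie most lens crystallins, part of the fibre genes and the small heat shock gene hspb6, but no lens and eye-field transcription factor. Of the fibre list, 4 genes lie above 1: ctsla, epha2a and both FYCO1 genes.

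Transcription factors of the lens and eye field were mostly within 2-fold of equality. Of 36 gene rows matched, 31 were compared, with a median log2 ratio of -0.04. None was called lower and 1 higher, against 2.6% and 2.16% of all genes compared. The lens regulators pitx3, with 133 and 135 counts, and foxe3, with 37 and 38, had ratios of 1.01 (0.792 to 1.30) and 1.03 (0.635 to 1.66). PROX1, which drives fibre differentiation in mouse, stood at 290 and 373 counts (ratio 1.28, 1.1 to 1.5). PAX6, an eye master regulator, had 946 and 892 counts for ENSDARG00000103379 (ratio 0.941, 0.858 to 1.03). The PAX6 gene ENSDARG00000045936 had 662 and 561 (ratio 0.846, 0.755 to 0.948). The gene with the symbol MAFA, of the large Maf factors that bind crystallin promoters in vertebrates, had 225 and 452 counts and was 2.01-fold higher (1.71 to 2.36), just past the size rule. HSF4, a heat shock factor of the lens, had only 4 and 3 counts. Most of these factors are also expressed in retina or brain, so in whole embryos their reads do not come from the lens alone.

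The small heat shock protein genes, relatives of the alpha crystallins, were described in the same way. Of 9 gene rows, 6 were compared, 1 was called lower and none higher, with a median log2 ratio of -0.46. HSPB1 had 1447 and 1377 counts, a ratio of 0.95 (0.882 to 1.02), and HSPB8 had 916 and 765, a ratio of 0.834 (0.757 to 0.919). The called gene was hspb6, with 23 and 6 counts, 3.84-fold lower (1.52 to 11.5). It passed the filter only through the wild-type library, and such genes had to differ. Over all genes compared, 2.6% were called lower.

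In RIP-seq the lens crystallins were hardly counted, while the crybg genes were. A member was taken as measurable with more than 3 counts in at least 1 RIP-seq library, the limit that a count of 0 allows. By this rule 5 of 55 members were measurable: crybg1a, crybg1b, crybb1l2, CRYBA4 and CRYGN (ENSDARG00000030411). The last 3 had 4 counts each under the wild-type label and 0 under the mutant label. A further 8 lens crystallins had reads but no more than 3 in either library, and 42 members had none, among them all 30 gamma M and all 3 alpha genes. So classes cannot be compared in RIP-seq.

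Summed over all lens crystallins, 27 reads were counted under the wild-type label and 3 under the mutant label, a level 11-fold lower in the latter (3.39 to 56.8). The RNA-seq level of these genes was itself 2.72-fold lower in the mutant (2.57 to 2.87). Set against RNA-seq of the same label, RIP-seq was 9.82-fold lower with the wild-type label (6.74 to 14.9). With the mutant label it was 39.8-fold lower (13.6 to 193), and these intervals overlap. A label difference beyond the RNA-seq level was not tested. The crybg genes differed the other way between the RIP-seq labels, with 102 reads and 441, 3.53-fold higher with the mutant label (2.84 to 4.42). The gene crybg1a had 79 and 343 counts, 3.54-fold higher (2.77 to 4.58), and crybg1b had 23 and 98, 3.48-fold higher (2.19 to 5.74). These were the 2 members called in RIP-seq, where 8.37% of 15762 genes compared were called higher and 5.3% lower. No single lens crystallin was called in that comparison.

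**Figure D5:**
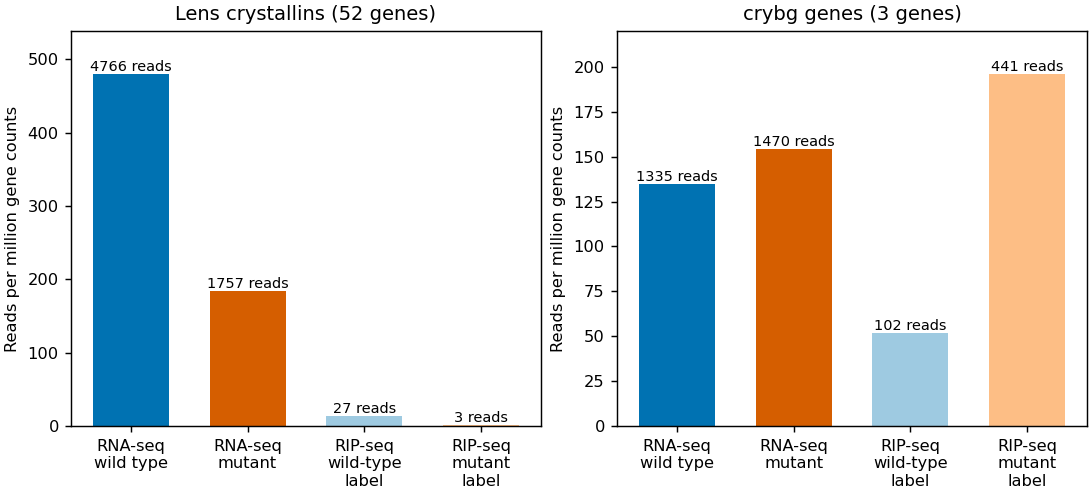
CPM of the gene counts summed over the 52 lens crystallins (left) and the 3 crybg genes (right) in each of the 4 libraries, with the reads counted above each bar. Lens crystallin bars drop from 4766 and 1757 reads in RNA-seq to 27 and 3 in RIP-seq, while the crybg bar is highest in RIP-seq with the mutant label, at 441 reads.

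Among counted reads, lens crystallins were scarce in RIP-seq relative to RNA-seq of the same label, beyond the lower depth of RIP-seq. In RIP-seq, 91.8% (wild-type label) and 89.5% (mutant label) of alignment records were to more than 1 place and were not counted. Of unique records, 82.1% and 79.2% fell on no gene, against 53.8% and 54.0% in RNA-seq. The part of these losses in the crystallin counts was not tested. Under the wild-type label the RNA-seq level, scaled by TMM, equals 265 reads, and 27 were counted, 9.82-fold lower (6.74 to 14.9). Under the mutant label it equals 119 reads, and 3 were counted, a 39.8-fold lower level (13.6 to 193). With total-count scaling the folds were 35.0 and 138, since a few features took most RIP-seq reads: the top 5 held 75.5% and 69.5%. Of the 20 members compared under the wild-type label, 11 were called lower and none higher, against 14.1% and 9.01% of 17412 genes. Of 16 under the mutant label, 9 were lower and 2 higher, against 16.2% and 13.8% of 17711 genes. Through the RNA-seq library alone, 10 of the 18 lens crystallins compared under the wild-type label and 13 of the 14 under the mutant label passed the filter, and such genes had to differ.

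Called lower under both labels were 9 beta or gamma N genes. Under the mutant label all 9 passed the filter only through RNA-seq, and such genes had to differ. The count is therefore no measure of agreement between the labels. Under the wild-type label crybb1l2 was 9.6-fold lower (3.73 to 35.3), and under the mutant label at least 5.1-fold lower against the floor, with an interval down to 4.11-fold. CRYBB1 was 17.4-fold lower (4.81 to 144) and, under the mutant label, at least 6.55-fold lower, with an interval down to 5.29-fold. The crybg genes had a summed ratio of RIP-seq to RNA-seq of 1.37 (1.11 to 1.68) with the wild-type label, which turned to 0.386 (0.312 to 0.472) with total-count scaling. With the mutant label it was 4.41 (3.96 to 4.91), and 1.27 (1.14 to 1.42) with total-count scaling. How much of these ratios is recovery with the tagged protein cannot be told apart from how the assays' RNA pools differ.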

How the data were processed

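Each library's deposited file holds unnormalised read counts for Ensembl genes. The submitters' processing notes name TopHat2 2.2.1, Bowtie2 2.2.3, HTSeq 0.6.1p1 and the build GRCz10. Whether counting used strand is not stated, so overlapping genes are uncertain. The 5 HTSeq summary rows were left out of library sizes. Per the labels' protocols, mRNA was enriched with oligo(dT) for all libraries.

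Symbols came from a gene name table that matched 26121 of 31953 IDs. It often uses human-style symbols, so IDs are given where copies share one. A RefSeq table (GRCz12tu) carries no Ensembl IDs and was used, by symbol or synonym for 47 members, only for gene order and overlap. Sequences were not used.

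Counts of each pair of libraries were scaled by TMM (edgeR 4.0.16, R 4.3.3). Ratios have exact conditional (Clopper-Pearson) intervals, and ratios of ratios have exact conditional odds-ratio intervals (scipy 1.17.1, Python 3.11.15). They cover counting error only, since PCR reads lacking molecular identifiers are not separate molecules. Ratios were computed for all genes that reached a CPM of 1 in either library of the pair. Medians use a prior count of 0.5. The code was tested on simulated counts. DESeq2 1.42.0 size factors were an alternative.

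The members, lists and tests were chosen with earlier results of these data known. Every member could be named; of other lists, the most counted and called genes were named, and MAFA, HSF4, foxe3, pitx3, PROX1, PAX6, BFSP1, BFSP2, lim2.1 and the FYCO1 genes were chosen for their role or after their values were seen. One gene of the lens fibre list that this rule would name is not reported here.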

Additional observations from a re-analysis of the deposited data

How the results depend on the processing

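The number of crystallin genes called lower in mutant RNA-seq was 21 with each scaling and 23 with no filter. With a filter on the mean (added after the data were examined) it was 17. It was 12 with a CPM of at least 5, 10 with a 4-fold rule and 13 with the whole interval beyond 2-fold. None was called higher under any of these. All 78 recomputed ratios of the 26 compared members kept call and direction under the 3 other scalings. Without its most counted member, the gamma N class had a ratio of 0.571 and its share relative to the other members an odds ratio of 1.06 in place of 0.602. The crybg class then had a ratio of 0.960, the alpha share an odds ratio of 1.14 and the gamma S share one of 2.38, with intervals including equality. Over the lens crystallins alone (added after the data were examined), the odds ratio of the beta share was 1.26 in place of 0.474, a turn in direction, and that of gamma N was 0.875, with an interval including equality.

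Measurable members in RIP-seq numbered 10 with a CPM of at least 1 and 2 with at least 10 counts. Over all members, RIP-seq with the mutant label was 2.81 times the wild-type label, and 1.65 times without crybg1a. Over all members with the mutant label, RIP-seq over RNA-seq was 2.02, but 0.584 with total counts, 0.707 without crybg1a and 1.91 without the 5 leading RIP-seq features. For crybg it was 1.27 with total counts in place of 4.41, and with the wild-type label 0.386 in place of 1.37. Total counts shifted all log2 ratios by 0.06 in RNA-seq, 0.10 in RIP-seq and -1.83 and -1.79 between assays. No paired analysis was possible because each group has 1 library. Symbols came from the gene name table in every setting, so that choice was not varied. Symbols from the RefSeq table alone were not run, since it pairs no Ensembl IDs with symbols.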

Other observations

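Genes named for crystallin or cryptochrome but outside the lens families were compared in the same libraries. All 12 matched rows were compared in RNA-seq, with a median log2 ratio of 0.10. None was called, where 2.6% of all genes compared were called lower and 2.16% higher. The quinone reductase gene CRYZ had 138 counts in wild type and 159 in the mutant, a ratio of 1.15 (0.910 to 1.46). The thyroid hormone binding protein gene CRYM had 35 and 23, a ratio of 0.656 (0.370 to 1.14). The photolyase-like gene cry-dash had 208 and 210 counts. In RIP-seq cry-dash was the 1 called gene of these 12, with 7 counts under the wild-type label and 26 under the mutant label, 3.03-fold higher (1.28 to 8.27); over all genes compared there, 8.37% were called higher, a like share.

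The MIP and LIM2 genes of the lens fibre list had few or no reads in RIP-seq. The MIP gene ENSDARG00000037285 had 1 count under the wild-type label and 0 under the mutant label. LIM2 (ENSDARG00000015445) and lim2.1 had none. Of the 24 rows of the list, 5 were compared in RIP-seq, 2 were called higher and 3 were not called. Over all genes compared, 8.37% were called higher. The called genes were FYCO1, ENSDARG00000078022 with 8 and 41 counts (4.18-fold, 1.94 to 10.3) and ENSDARG00000104500 with 14 and 42 (2.45-fold, 1.31 to 4.85). Among those not called, ctsla had 293 and 302 counts and epha2a had 72 and 78.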
